A study of Mus musculus with 10 samples.

Results

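Promoter contacts of the carbonic anhydrase genes Car1 and Car2 were examined in a promoter-capture Hi-C study of mouse bone marrow. In this assay crosslinked chromatin is cut with HindIII and ligated, and the ligated fragments that hold a promoter are pulled down, so that each pair joins a captured fragment (the bait) to another fragment (the other end). Members were all listed pairs whose bait holds the start or end of Car1 (gene at chr3:14766214-14808365, bait chr3:14807832-14809556) or of Car2 (gene at chr3:14886269-14900770, bait chr3:14882933-14894341), in mm10 coordinates. They numbered 61 of the 88624 pairs listed for haematopoietic stem and progenitor cells (HSPCs), 13 from the Car1 bait and 48 from the Car2 bait. In the 25622 pairs listed for neutrophils they numbered 21, all from the Car2 bait.

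Carbonic anhydrases interconvert carbon dioxide and bicarbonate. Car1 and Car2 encode cytosolic forms that are abundant in red blood cells, where they serve carbon dioxide transport, and in the mouse marrow Car1 is a gene of the erythroid branch while Car2 is also active in earlier progenitors. Both lie in 1 cluster on chromosome 3 with Car3, a cytosolic form best known from muscle and fat, and Car13, a further cytosolic form. Chromatin contacts between such promoters and distant fragments are one way in which distant regulatory DNA is brought close to a gene.

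All animals were C57BL/6, and each of the 5 groups had 2 libraries, which the labels call biological duplicates. The double mutants (DM) were Npm1flox-cA/+;Flt3ITD/+;Mx1-Cre+, the Flt3-ITD mice Flt3ITD/+, the Npm1c mice Npm1flox-cA/+;Mx1-Cre+, and the remaining mice wild type (WT). Npm1c, a mutation of acute myeloid leukaemia, moves nucleophosmin out of the nucleus. An internal tandem duplication (ITD) keeps the cytokine receptor Flt3 active. Mx1-Cre is driven by an interferon-inducible promoter that also works outside stem cells. It is named for the DM and Npm1c groups alone, so Cre and Npm1c cannot be told apart. HSPCs were the lineage-negative marrow fraction from a depletion kit, which is a mixture of progenitors, and WT neutrophils came from an isolation kit; ages and the number of animals behind a library are not given in the sources used here, so p-values measure the spread between these libraries. The deposited values are non-negative interaction scores with no read counts, so depth is unknown, and the labelled cell types could not be checked against expression markers. In a mixed population, fewer cells with a contact and a weaker contact per cell cannot be told apart.

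A pair entered the HSPC list when it scored 5 or more in both libraries of at least 1 HSPC group. Median scores over the whole list were 4.76 to 5.74 in the 8 HSPC libraries, and Spearman correlations over all listed pairs were 0.481 to 0.547 within groups and 0.127 to 0.422 between groups. The Car2 bait was one of the richest in the list: 114 of 12186 baits had more pairs, 99.0% had fewer, and the median bait had 4. The Car1 bait with its 13 pairs had fewer than 1801 baits.

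All 13 Car1 contacts ran to higher coordinates and ended 362 to 433 kb away in 1 stretch of 76.2 kb, chr3:15166372-15242541. No gene of the gene table overlaps this stretch; the nearest are the long non-coding RNA gene Gm33819, 9.09 kb away, and the protein-coding gene Gm9733, 52.5 kb away. The 48 Car2 contacts fell in 3 sets by position. Of these, 36 ran to higher coordinates over 105 to 381 kb, 6 ran to lower coordinates over 94.1 to 312 kb, and 6 reached other ends 1186 to 1290 kb away at higher coordinates.

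**Figure D1:**
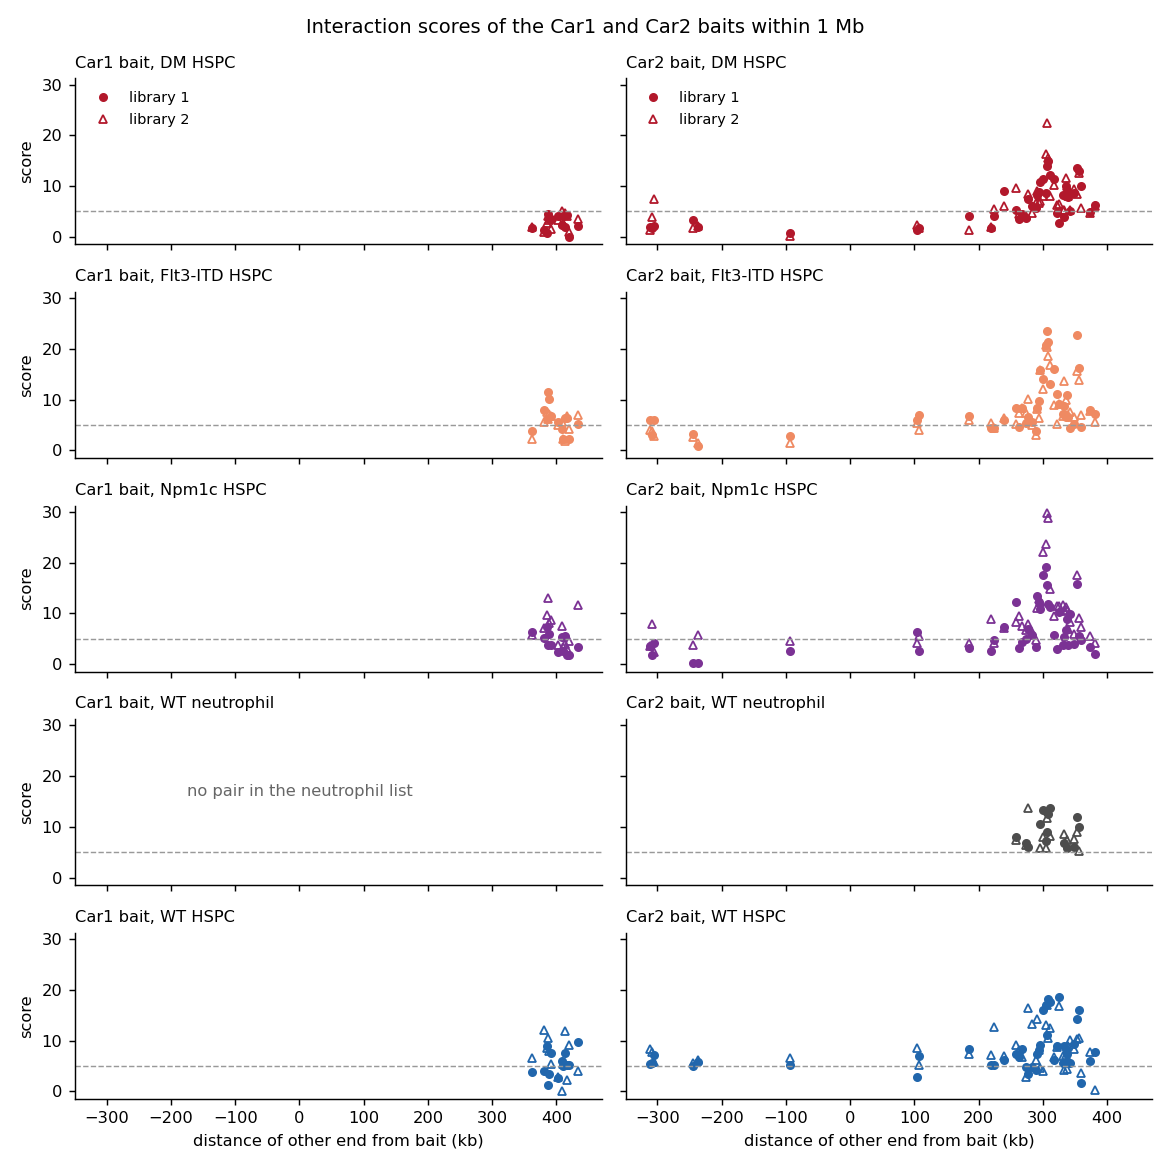
Interaction score (y axis) against the signed distance of the other end from the bait in kb (x axis) for the Car1 bait (left) and the Car2 bait (right) within 1 Mb. Filled circles are library 1 and open triangles library 2 of each group, and the dashed line marks a score of 5. The Car1 contacts form 1 patch 362 to 433 kb away, low in DM HSPCs, and the highest Car2 score of every HSPC group lies 305 to 326 kb away.

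Car1 contacts were weak in DM HSPCs. No Car1 contact scored 5 or more in both DM libraries, against 8 of 13 (61.5%) in Flt3-ITD, 5 (38.5%) in Npm1c and 5 (38.5%) in WT HSPCs. Over all listed pairs 48.8% did so in DM, 51.2% in Flt3-ITD, 41.8% in Npm1c and 34.9% in WT HSPCs. The Npm1c and WT shares at Car1 were thus near those of all pairs. The median Car1 score was 2.41 and 3.21 in the DM libraries, 6.12 and 5.59 in Flt3-ITD, 3.80 and 7.18 in Npm1c, and 5.11 and 6.55 in WT libraries. The highest Car1 score in the DM libraries was 4.49 and 5.18. Since a pair is listed through a group that reached 5, the Car1 list owes nothing to DM, and low DM scores over all 13 contacts are in part fixed by the list. Among promoters with at least 13 listed pairs, 21 of 2007 (1.05%) likewise had none at 5 in DM HSPCs, as 53 (2.64%) had none in WT HSPCs.

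**Figure D2:**
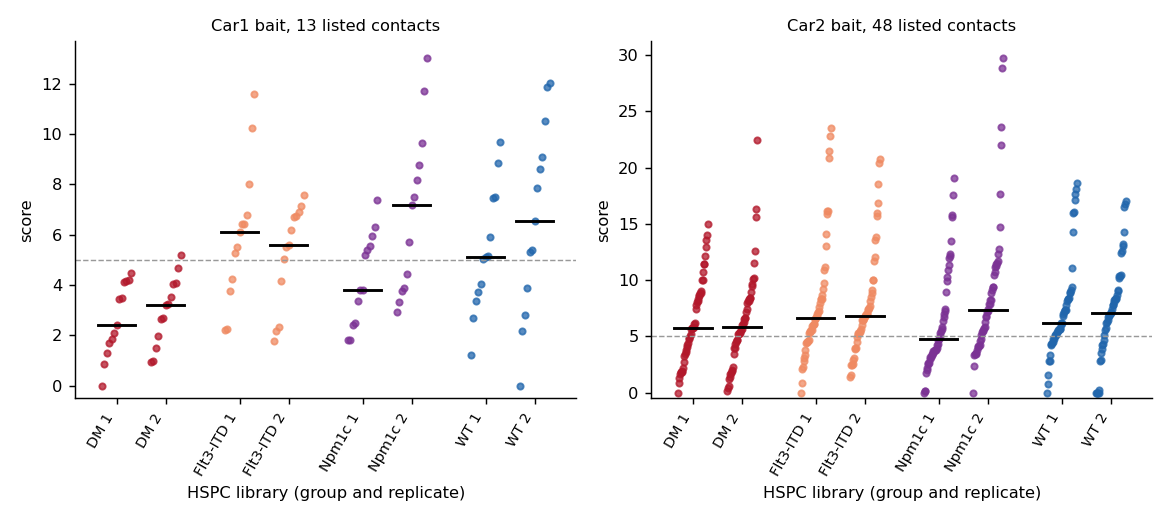
Interaction scores (y axis) of the 13 Car1 contacts (left) and the 48 Car2 contacts (right) in each HSPC library (x axis). Each point is a contact, the bar is the library's median and the dashed line marks a score of 5; the Car1 medians are 2.41 and 3.21 in DM libraries and at least 3.80 in all others.

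At 5 of the 13 Car1 contacts both DM libraries lay below every library of the other 3 HSPC groups, as at 6.37% of all listed pairs. That share is not like for like. None of the 13 was listed through DM, while 48.8% of all pairs scored 5 or more in both DM libraries. Contact scores with chr3:15192988-15194355, 385 kb away, were 0.847 and 2.65 in DM, 6.12 and 7.57 in Flt3-ITD, 7.37 and 9.63 in Npm1c, and 8.84 and 8.60 in WT libraries. The pair with chr3:15184975-15192987 next to it scored 1.29 and 0.943 in DM, 8.03 and 5.59 in Flt3-ITD, 5.19 and 7.18 in Npm1c, and 4.06 and 12.0 in WT libraries. At both of these fragments every library outside DM scored above 4 and every DM library below 3. At chr3:15226332-15230509 the scores were 0 and 0.984 in DM, 2.26 and 4.16 in Flt3-ITD, 1.80 and 4.45 in Npm1c, and 5.14 and 9.09 in WT libraries. The link to chr3:15197725-15201955 scored 3.44 and 1.49 in DM, 6.78 and 6.74 in Flt3-ITD, 3.80 and 8.76 in Npm1c, and 7.46 and 5.31 in WT libraries. For chr3:15166372-15175724, the nearest to the bait, the scores were 1.69 and 1.96 in DM, 3.78 and 2.32 in Flt3-ITD, 6.30 and 5.69 in Npm1c, and 3.74 and 6.55 in WT libraries. Of these 5 fragments, the gap between DM and the lowest other library was widest at chr3:15192988.

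The other 8 Car1 contacts overlapped between DM and at least 1 other group. The contact with chr3:15194356-15196085 scored 4.49 and 4.05 in DM, 11.6 and 6.18 in Flt3-ITD, 3.80 and 13.0 in Npm1c, and 1.23 and 10.5 in WT libraries, so that the Npm1c and WT libraries each disagreed widely. Contact scores with chr3:15196086-15197724 were 3.49 and 3.21 in DM, 10.2 and 7.15 in Flt3-ITD, 5.94 and 8.16 in Npm1c, and 3.38 and 7.87 in WT libraries, with DM below both single mutants but not below WT. The pair with chr3:15241599-15242541, the farthest, scored 2.09 and 3.54 in DM, 5.28 and 6.91 in Flt3-ITD, 3.35 and 11.7 in Npm1c, and 9.69 and 3.89 in WT libraries. DM lay below Flt3-ITD and WT there and overlapped Npm1c.

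At chr3:15220308-15223438 the scores were 1.87 and 4.68 in DM, 6.44 and 1.77 in Flt3-ITD, 5.53 and 3.86 in Npm1c, and 7.50 and 11.9 in WT libraries, and only WT stood clear of DM. The link to chr3:15217635-15218270 scored 2.41 and 5.18 in DM, 4.22 and 5.52 in Flt3-ITD, 5.39 and 7.51 in Npm1c, and 5.92 and 0 in WT libraries. It is the single Car1 contact whose other end the Car2 bait does not list. For chr3:15218711-15220307 the scores were 4.15 and 2.69 in DM, 2.22 and 2.17 in Flt3-ITD, 2.47 and 3.33 in Npm1c, and 5.03 and 5.39 in WT libraries, so WT was the highest group.

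Not every Car1 contact was lowest in DM. The contact with chr3:15224957-15226331 scored 4.20 and 4.07 in DM, 6.41 and 6.72 in Flt3-ITD, 1.80 and 2.92 in Npm1c, and 5.11 and 2.16 in WT libraries, with DM above Npm1c. Contact scores with chr3:15209472-15211230 were 4.10 and 3.24 in DM, 5.52 and 5.02 in Flt3-ITD, 2.43 and 3.76 in Npm1c, and 2.70 and 2.82 in WT libraries, with DM above WT.

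Counted over the 13 Car1 contacts, both DM libraries lay below both WT libraries at 8, where 19.4% of all pairs do, and above them at 1, where 32.6% do. Over the 10 contacts that Npm1c or Flt3-ITD had brought into the list, and so without selection by DM or WT, the count below WT was 5, where 16.4% of such pairs do. DM lay below Flt3-ITD at 10 of the 13 contacts, where 27.1% of all pairs do, and at 6 of the 9 that other groups had brought in, where 26.7% do. DM lay below Npm1c at 7 of the 13, where 23.9% do, and at 5 of the 11 brought in by other groups, where 21.3% do. The contacts of the Car1 bait end in neighbouring fragments and come from the same libraries, so they are not independent of each other.

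Single contacts were tested with limma on log2 of the score plus 1, with Benjamini-Hochberg adjustment over 88421 pairs and a threshold of 0.05. For DM against WT HSPCs 0 of 13 Car1 contacts were called, where 0.156% of all pairs were called lower and 0.42% higher, and 6 passed an unadjusted p of 0.05, all lower in DM (19.5% of all pairs passed it). The lowest adjusted p was 0.0785, for differences of -2.48 (SE 0.51) at chr3:15226332 and -1.90 (SE 0.39) at chr3:15192988. Of the 13 contacts, 3 were listed through WT alone, with chr3:15226332 among them. None was listed through DM, which favours lower DM values in this and the other comparisons with DM. For DM against Npm1c HSPCs 0 were called (0.283% of all pairs lower, 0.278% higher) and 5 passed unadjusted, all lower in DM (17.7% of all pairs passed). For DM against Flt3-ITD HSPCs 0 were called (0.321% lower, 0.137% higher) and 5 passed unadjusted, again all lower in DM (12% of all pairs passed). Between the single mutants and WT no Car1 contact was called either: for Flt3-ITD 0 were called (0.0905% lower, 0.477% higher) with 2 unadjusted, 1 in each direction (14.2% of all pairs), and for Npm1c 0 were called (0.0848% lower, 0.225% higher) with 0 unadjusted (12.5% of all pairs).

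The Car1 promoter was then summarised as the average log2(score + 1) of its contacts. Over all 13 listed contacts this level was 1.81 ± 0.13 in DM, 2.63 ± 0.12 in Flt3-ITD, 2.59 ± 0.40 in Npm1c and 2.62 ± 0.08 in WT HSPCs (SD, n = 2 each). Flt3-ITD, WT and Npm1c differed by less than the spread between their libraries, and DM lay below all 3 without overlap. For the tests, only contacts brought into the list by a group outside the comparison were averaged, since this keeps the selection apart from the groups compared. On those 10 contacts the Car1 promoter stood at 1.84 and 1.94 in DM libraries, against 2.50 and 2.51 in WT libraries. The difference was -0.61 (SE 0.20, adjusted p = 0.0753 in limma), which did not pass 0.05; 1.74% of the 1841 promoters tested had a lower difference, 1.2% of promoters were called lower and 6.36% higher, and 476 passed unadjusted.

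The DM level at Car1 was also below that of each single mutant, and these differences did not pass either. Against Npm1c the Car1 promoter stood at 1.74 and 1.87 in DM libraries and 2.22 and 2.86 in Npm1c libraries over 11 contacts, a difference of -0.74 (SE 0.21, adjusted p = 0.0809 in limma; 0.578% of promoters called lower, 0.289% higher). Against Flt3-ITD it stood at 1.50 and 1.75 in DM libraries and 2.60 and 2.42 in Flt3-ITD libraries over 9 contacts, a difference of -0.88 (SE 0.21, adjusted p = 0.268 in limma). With fewer than 10 contacts that value comes from the fit over promoters with at least 1 contact, in which 0.0309% were called lower and 0.0103% higher.

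Neither mutation alone shifted the Car1 promoter beyond its error. Flt3-ITD minus WT was 0.16 (SE 0.21, adjusted p = 0.736 in limma, 5 contacts; 0.0554% of promoters called higher, 0% lower), with 2.83 and 2.66 in Flt3-ITD libraries and 2.56 and 2.61 in WT libraries. Npm1c minus WT was 0.06 (SE 0.28, adjusted p = 0.963 in limma, 8 contacts; 0% called in either direction, 1108 of 10775 promoters unadjusted), with 2.30 and 3.08 in Npm1c libraries and 2.49 and 2.77 in WT libraries. The interaction asks whether DM departs from the sum of both single mutants. It was -0.79 for Car1 (SE 0.28, adjusted p = 0.101 in limma; 7.2% of promoters called lower, 0.282% higher). The Npm1c main effect (Npm1c and DM minus WT and Flt3-ITD) was -0.43 (SE 0.14, adjusted p = 0.228 in limma; 0.0353% called lower, 0% higher), and the Flt3-ITD main effect (Flt3-ITD and DM minus WT and Npm1c) was -0.38 (SE 0.14, adjusted p = 0.0639 in limma; 3.25% called lower, 19.6% higher). No group lies outside these last 3 comparisons, so they use all 13 listed contacts and carry the selection of the list.

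The Car1 call for DM depended on the settings. The setting with all listed contacts takes back the 3 listed through WT alone and none listed through DM, which favours a lower DM value. DM minus WT at Car1 passed 0.05 with all listed contacts (-0.81, adjusted p = 0.0120), after quantile normalization (-0.80, adjusted p = 0.0170) and without either Npm1c library (adjusted p = 0.0285), and over all 17 alternatives the adjusted p ranged from 0.0120 to 0.267.

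**Figure D3:**
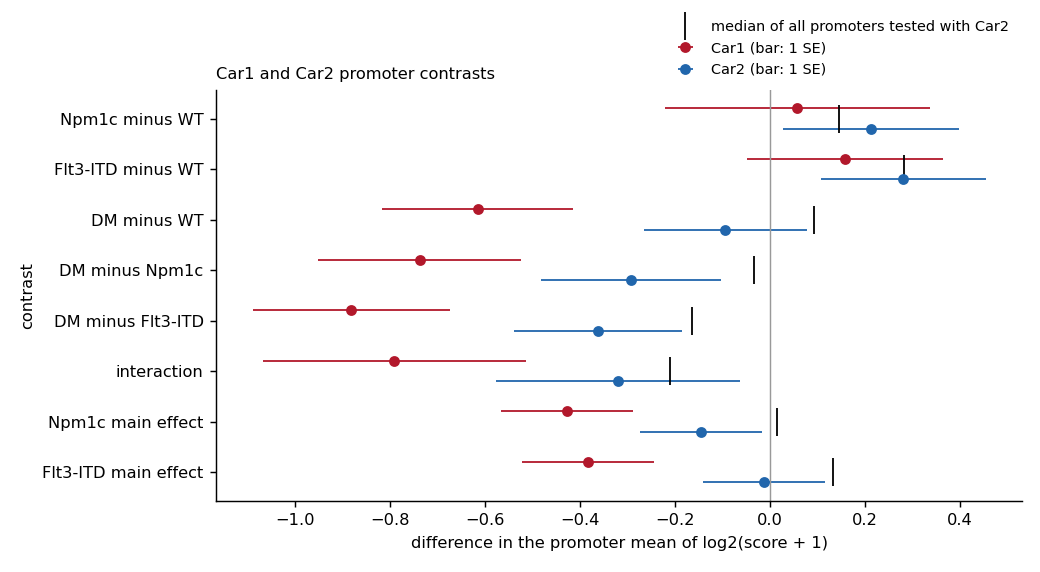
Difference in the promoter mean of log2(score + 1) (x axis) for Car1 (red) and Car2 (blue) in the 8 HSPC comparisons (y axis); bars are 1 SE from limma and black ticks the median of all promoters tested with Car2. The Car1 values lie between -0.88 and -0.38 in the 6 comparisons that involve DM, and no point passed the adjusted threshold.

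Car2 had contacts at 5 or more in all 4 HSPC groups. Of its 48 contacts 26 (54.2%) scored 5 or more in both DM libraries, 30 (62.5%) in Flt3-ITD, 21 (43.8%) in Npm1c and 31 (64.6%) in WT HSPCs. Over all listed pairs the shares were 48.8%, 51.2%, 41.8% and 34.9% in that order. In DM and Npm1c the Car2 share was thus near that of all pairs. At 12 of the 48 contacts all 4 groups reached 5. A further 10 reached 5 in WT alone, 5 in DM alone, 4 in Flt3-ITD alone and 2 in Npm1c alone. Median Car2 scores were 5.75 and 5.84 in DM, 6.63 and 6.82 in Flt3-ITD, 4.73 and 7.34 in Npm1c, and 6.19 and 7.11 in WT libraries. Averaged over all 48 contacts, log2(score + 1) of the Car2 promoter was 2.65 ± 0.02 in DM, 2.96 ± 0.01 in Flt3-ITD, 2.83 ± 0.34 in Npm1c and 2.81 ± 0.10 in WT HSPCs (SD, n = 2 each). In order of level, Flt3-ITD, Npm1c and WT followed each other within the spread of the Npm1c libraries, and the DM libraries lay below both WT libraries and inside the Npm1c range.

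Among all pairs 250 to 400 kb apart, 19143 in number, the highest Car2 group mean exceeded 99.4% of pairs in DM, 99.8% in Flt3-ITD, 99.8% in Npm1c and 99.7% in WT HSPCs. The highest Car1 group mean at such distances exceeded 29.7% of pairs in DM, 87.7% in Flt3-ITD, 87.7% in Npm1c and 92.3% in WT HSPCs. These are the highest of 33 Car2 contacts and of 6 Car1 contacts, and no Car1 contact was listed through DM, so the values of the 2 genes are not compared.

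The 36 Car2 contacts at higher coordinates within 1 Mb held its strong scores. Of these, 23 scored 5 or more in both DM libraries, 28 in Flt3-ITD, 20 in Npm1c and 25 in WT HSPCs. Over all listed pairs at any distance the shares were 48.8% in DM, 51.2% in Flt3-ITD, 41.8% in Npm1c and 34.9% in WT HSPCs. The medians of the 36 were 7.61 and 6.58 in DM, 7.61 and 7.42 in Flt3-ITD, 5.74 and 9.00 in Npm1c, and 7.34 and 8.12 in WT libraries. The DM, Flt3-ITD and WT library medians all lay between 6.58 and 8.12, inside the range of the Npm1c libraries. Other ends of 2 of them lay within the long non-coding RNA gene A930001A20Rik and 2 at Gm33819, and the rest held no annotated gene.

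A run of strong Car2 contacts lay 305 to 308 kb away, on 3 consecutive fragments from chr3:15192988 to chr3:15197724. The first, chr3:15192988-15194355, scored 8.60 and 16.3 in DM, 20.9 and 20.7 in Flt3-ITD, 19.0 and 23.6 in Npm1c, 7.29 and 5.80 in WT neutrophil, and 17.1 and 13.0 in WT HSPC libraries. The second, chr3:15194356-15196085, scored 14.0 and 22.4 in DM, 23.5 and 20.4 in Flt3-ITD, 15.6 and 29.7 in Npm1c, 9.07 and 11.8 in WT neutrophil, and 11.1 and 17.0 in WT HSPC libraries. The third, chr3:15196086-15197724, scored 15.0 and 15.6 in DM, 21.4 and 18.5 in Flt3-ITD, 11.9 and 28.8 in Npm1c, 12.6 and 13.2 in WT neutrophil, and 18.1 and 10.4 in WT HSPC libraries. On each of the 3 fragments DM and WT libraries overlapped, and the Npm1c libraries spread more widely than DM and WT on the third.

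Contacts on both sides of this peak were also strong. The pair with chr3:15184975-15192987 scored 11.4 and 7.98 in DM, 14.1 and 12.0 in Flt3-ITD, 17.6 and 22.0 in Npm1c, 13.3 and 8.06 in WT neutrophil, and 16.0 and 3.92 in WT HSPC libraries. At chr3:15197725-15201955 the scores were 12.1 and 8.13 in DM, 13.0 and 16.8 in Flt3-ITD, 11.3 and 14.7 in Npm1c, 13.7 and 8.29 in WT neutrophil, and 17.6 and 12.4 in WT HSPC libraries. The link to chr3:15182758-15184974 scored 10.7 and 7.16 in DM, 15.8 and 15.9 in Flt3-ITD, 10.9 and 12.3 in Npm1c, 10.5 and 5.77 in WT neutrophil, and 9.12 and 4.66 in WT HSPC libraries. Flt3-ITD lay above WT on this last fragment, with no adjusted call (1.16, SE 0.38, adjusted p = 0.247 in limma).

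A second rise in the Car2 profile lay 353 to 356 kb away. For chr3:15241599-15242541 the scores were 13.6 and 8.40 in DM, 22.8 and 15.7 in Flt3-ITD, 15.8 and 17.6 in Npm1c, 11.9 and 8.98 in WT neutrophil, and 14.3 and 10.4 in WT HSPC libraries. The contact with chr3:15242542-15245821 scored 13.0 and 12.6 in DM, 16.2 and 13.8 in Flt3-ITD, 5.46 and 9.13 in Npm1c, 10.0 and 5.16 in WT neutrophil, and 16.1 and 10.4 in WT HSPC libraries. Both single mutants lay above WT on the first of these fragments, while Npm1c was the lowest HSPC group on the second.

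The remaining 2 of the 10 strongest Car2 contacts differed between DM and WT in opposite directions. Contact scores with chr3:15211231-15217634, 326 kb away, were 2.71 and 6.53 in DM, 9.17 and 9.11 in Flt3-ITD, 10.2 and 11.5 in Npm1c, and 18.6 and 16.8 in WT libraries, so that WT stood above every mutant library and DM below every other library. DM minus WT there was -1.82 (SE 0.38, adjusted p = 0.0822 in limma). The pair with chr3:15201956-15209471 scored 11.4 and 10.2 in DM, 16.1 and 8.89 in Flt3-ITD, 5.67 and 9.42 in Npm1c, and 6.17 and 6.73 in WT libraries, with DM above WT.

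The 6 Car2 contacts at lower coordinates reached the neighbouring genes, and all 6 scored 5 or more in both libraries of WT alone. Their lower scores in the mutants are therefore fixed by how they were listed, and are given as a description. Of their other ends, 3 lie in chr3:14573823-14585454 at E2f5, which encodes an E2F transcription factor of the cell cycle, 2 lie within Car13 and 1 lies within Car1. The contact with the Car1 gene, chr3:14790812-14798232, scored 0.840 and 0.156 in DM, 2.83 and 1.41 in Flt3-ITD, 2.60 and 4.55 in Npm1c, and 5.15 and 6.48 in WT libraries, with DM lowest and WT highest. At chr3:14642004-14646883, in Car13, the scores were 3.22 and 1.71 in DM, 3.32 and 2.58 in Flt3-ITD, 0.125 and 3.77 in Npm1c, and 5.03 and 5.56 in WT libraries. At chr3:14650891-14652079, also in Car13, the scores were 1.95 and 2.04 in DM, 0.822 and 1.54 in Flt3-ITD, 0.124 and 5.79 in Npm1c, and 5.67 and 6.17 in WT libraries. Over all 6 such contacts the medians were 1.89 and 1.87 in DM, 3.20 and 2.73 in Flt3-ITD, 2.16 and 4.16 in Npm1c, and 5.49 and 6.32 in WT libraries. The Npm1c libraries disagreed at both Car13 fragments, and none of the 6 contacts was in the neutrophil list.

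The contact between E2f5 and Car2 was also captured from the E2f5 bait. This gives a second reading of the same 2 fragments in the same libraries, so the readings are not independent. Read from the Car2 bait it scored 1.84 and 1.38 in DM, 6.09 and 3.93 in Flt3-ITD, 3.54 and 3.56 in Npm1c, and 5.37 and 8.30 in WT libraries. Read from the E2f5 bait it scored 4.99 and 3.36 in DM, 8.67 and 8.63 in Flt3-ITD, 4.75 and 5.14 in Npm1c, and 7.06 and 8.65 in WT libraries. Both readings had DM below Flt3-ITD and WT, and neither was listed through DM, which favours that order. From the E2f5 bait, where Flt3-ITD and WT had brought the pair into the list, DM minus WT was -0.79 (SE 0.31, adjusted p = 0.225 in limma). The Car2 fragment was listed from 1 more bait, that of Gm9733, 443 kb away. There it scored 5.74 and 6.80 in DM, 2.25 and 1.67 in Flt3-ITD, 0.0285 and 1.51 in Npm1c, and 0.0789 and 0.519 in WT libraries, and this pair was listed through DM alone.

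At single contacts of Car2, 1 of 48 was called in any comparison of HSPC groups, the one with chr3:16159845-16162896, 1273 kb away in a stretch with no annotated gene. It scored 0 and 0.439 in DM, 7.63 and 6.84 in Flt3-ITD, 2.15 and 5.16 in Npm1c, and 0 and 0 in WT libraries, so it was high in Flt3-ITD and at or near 0 in DM and WT. Flt3-ITD minus WT was 3.04 (SE 0.40, adjusted p = 0.0208), DM minus Flt3-ITD was -2.78 (SE 0.40, adjusted p = 0.0321) and the interaction -4.91 (SE 0.56, adjusted p = 0.0334), all in limma. Of all pairs, 0.42% were called lower and 0.145% higher in the interaction. The contact was listed through Flt3-ITD alone, which favours these 3 differences. The Flt3-ITD minus WT call was lost without any one of the WT or Flt3-ITD libraries, the DM minus Flt3-ITD call without any one of the WT, Flt3-ITD or DM libraries, and the interaction call without any 1 library other than Npm1c library 1 (0 contacts called in each case).

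In the other comparisons limma called 0 of 48 Car2 contacts. For DM against WT 9 passed unadjusted, 7 lower and 2 higher in DM, where 19.5% of all pairs did. The lowest adjusted p was 0.0543, at chr3:16081364-16081635, which was listed through DM alone, the group where it is high. For DM against Npm1c 7 passed unadjusted, 5 lower and 2 higher in DM (17.7% of all pairs passed), and for Npm1c against WT 5 passed, 3 higher and 2 lower in Npm1c (12.5% of all pairs). In none of these 3 comparisons did the Car2 share exceed that of all pairs. In the comparisons that held the call above, 9 of 48 passed for DM against Flt3-ITD, all lower in DM (12% of all pairs). For Flt3-ITD against WT 5 passed, 3 higher and 2 lower (14.2% of all pairs), and for the interaction 6, 2 higher and 4 lower (14.4%). For the Npm1c main effect 0.192% of all pairs were called higher and 0.178% lower. There 8 Car2 contacts (7 lower, 1 higher) and 3 Car1 contacts (all lower) passed unadjusted (10.8% of all pairs). For the Flt3-ITD main effect 0.58% were called higher and 0.202% lower. There 6 Car2 contacts (3 lower, 3 higher) and 5 Car1 contacts (4 lower, 1 higher) passed unadjusted (18.2% of all pairs). In the interaction 0 Car1 contacts were called and 4 passed unadjusted (14.4% of all pairs).

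The Car2 contacts beyond 1 Mb were listed for the mutants rather than WT. Of the 6, 3 scored 5 or more in both DM libraries, 2 in Flt3-ITD, 1 in Npm1c and 0 in WT HSPCs, and WT library 2 had a score of 0 at 5 of them. Over all listed pairs the shares at 5 or more were 48.8%, 51.2%, 41.8% and 34.9% in that order of groups. The link to chr3:16081364-16081635 scored 5.63 and 8.31 in DM, 5.54 and 2.47 in Flt3-ITD, 3.68 and 3.40 in Npm1c, 5.25 and 5.13 in WT neutrophil, and 0.788 and 0 in WT HSPC libraries. For chr3:16109511-16111628 the scores were 5.79 and 5.31 in DM, 0 and 5.23 in Flt3-ITD, 3.75 and 3.42 in Npm1c, 7.01 and 5.20 in WT neutrophil, and 4.47 and 0 in WT HSPC libraries. At the first of these fragments DM and neutrophils both lay above WT HSPCs, an order that its listing through DM and for neutrophils favours. At the second the WT HSPC libraries disagreed. The contact with chr3:16177766-16179249 scored 8.06 and 0.553 in DM, 2.27 and 11.7 in Flt3-ITD, 7.43 and 5.42 in Npm1c, 5.44 and 9.77 in WT neutrophil, and 2.77 and 2.94 in WT HSPC libraries, where the DM and Flt3-ITD libraries disagreed.

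At 6 of the 48 Car2 contacts both DM libraries lay below every other HSPC library, and at 3 they lay above every other, where 6.37% and 13.2% of all listed pairs do. The 3 above were all beyond 1 Mb and had been listed through DM alone, which favours that order. None of the 6 below had been listed through DM, which favours the opposite order. Nothing is read from either count. Counted against WT, DM lay below at 16 of the 48 Car2 contacts and above at 7, where 19.4% and 32.6% of all pairs do. Of the 48, 10 were listed through WT alone and 5 through DM alone, which favours the one order or the other. Over the 33 contacts brought in by the single mutants it lay below at 8 and above at 3, where 16.4% and 25% of such pairs do.

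The Car2 promoter mean was called in 0 comparisons of HSPC groups by limma. DM minus WT was -0.09 (SE 0.17, adjusted p = 0.782, 33 contacts), with 2.94 and 2.86 in DM libraries and 3.07 and 2.92 in WT libraries. Flt3-ITD minus WT was 0.28 (SE 0.17, adjusted p = 0.257, 30 contacts; 7.21% of promoters called higher, 0% lower), equal to the median of all promoters tested, with 3.15 and 3.25 in Flt3-ITD libraries and 3.04 and 2.79 in WT libraries. Npm1c minus WT was 0.21 (SE 0.19, adjusted p = 0.702, 36 contacts; 0.102% called higher, 0% lower), with 2.82 and 3.21 in Npm1c libraries and 2.95 and 2.65 in WT libraries. In the same limma fit, unadjusted p was 0.597 for DM, 0.125 for Flt3-ITD and 0.271 for Npm1c.

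Against the single mutants the Car2 promoter was lower in DM by less than at Car1, with no call. DM minus Flt3-ITD was -0.36 (SE 0.18, adjusted p = 0.261 in limma, 38 contacts; 4.23% called lower, 0.0661% higher), and DM minus Npm1c was -0.29 (SE 0.19, adjusted p = 0.417 in limma, 41 contacts). The interaction was -0.32 (SE 0.26, adjusted p = 0.474 in limma), and the main effects were -0.15 for Npm1c and -0.01 for Flt3-ITD (SE 0.13 each). Whether the DM difference at Car1 differs from that at Car2 was not tested.

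**Figure D4:**
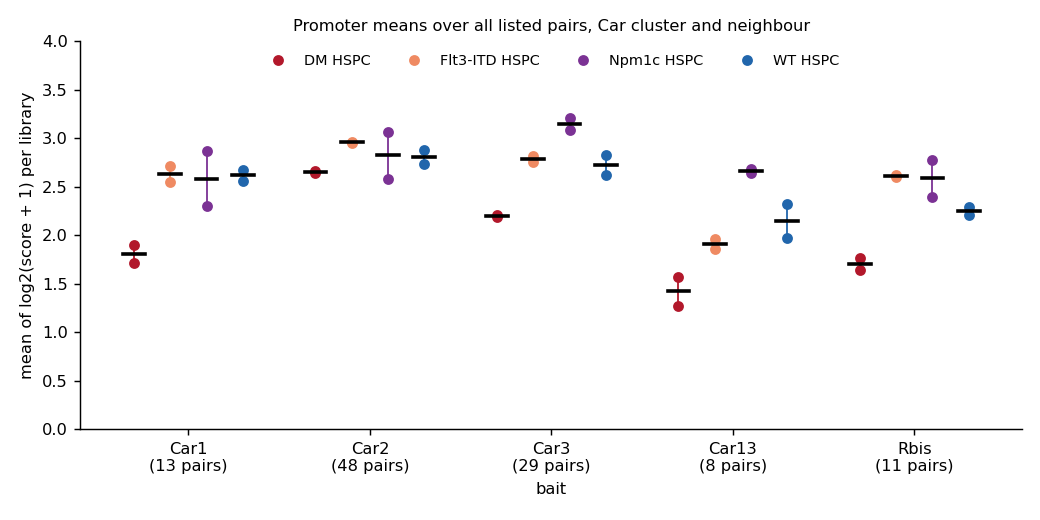
Mean of log2(score + 1) over all listed pairs (y axis) in each HSPC library for the baits of the Car cluster and the neighbouring Rbis bait (x axis), with groups in the order DM, Flt3-ITD, Npm1c and WT. Points are libraries and bars group means. DM has the lowest group mean at all 5 baits, with 1.81 at Car1 and 2.65 at Car2. At Car2 the DM libraries lie inside the Npm1c range. No Car1 pair was listed through DM, so the low DM value at Car1 is in part fixed by the list.

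Most of the fragments that Car1 contacted were also contacted by Car2 and Car3. Of the 13 other ends of Car1, 12 (92.3%) were also other ends of Car2, which makes 25.0% of the Car2 list, and all 13 were also other ends of Car3, which makes 44.8% of the 29 Car3 pairs. The 12 fragments lie in chr3:15166372-15242541. Of other baits, Rbis listed 4 of them, Car13, Lrrcc1 and Gm5150 listed 2 each and E2f5 listed 1. This comparison was chosen after the values had been seen, so its levels are given with no test. A Car1 contact and a Car2 contact that end in the same fragment differ in bait and in distance, since the Car1 bait lies farther away.

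On the 12 shared fragments the average log2(score + 1) of Car1 minus that of Car2 was -1.60 and -1.46 in DM, -1.01 and -1.06 in Flt3-ITD, -0.998 and -1.10 in Npm1c, and -0.95 and -0.37 in WT libraries. The gap was wider in both DM libraries than in any other library. No Car1 contact was listed through DM, while Car2 contacts on many of these fragments were. A low Car1 level and a wider gap in DM are therefore in part fixed by the lists. The Car1 level on these fragments was 1.78 ± 0.09 in DM, 2.64 ± 0.15 in Flt3-ITD, 2.56 ± 0.41 in Npm1c and 2.72 ± 0.26 in WT HSPCs, while the Car2 level was 3.31 ± 0.00117 in DM, 3.67 ± 0.11 in Flt3-ITD, 3.61 ± 0.48 in Npm1c and 3.38 ± 0.16 in WT HSPCs (SD, n = 2 each). On the same fragments the Car2 level of DM and WT differed by less than the WT spread, while the Car1 level was lower in both DM libraries than in any other.

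**Figure D5:**
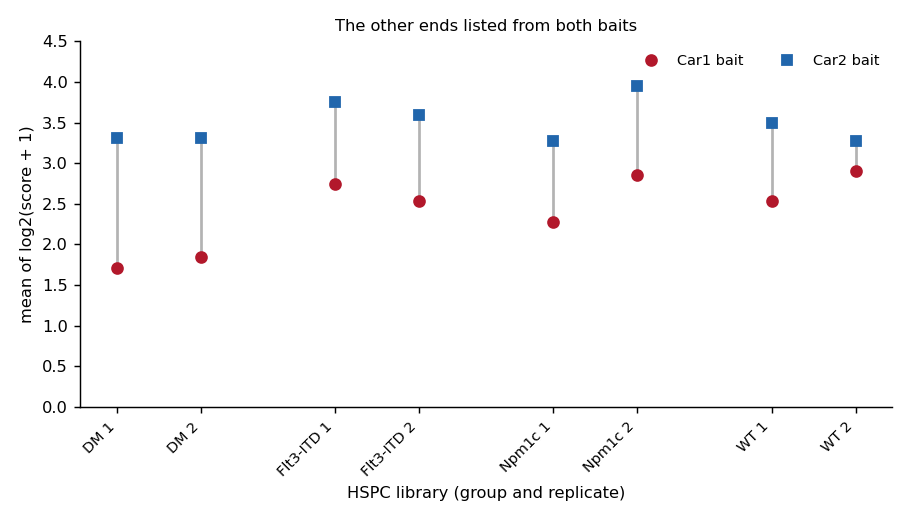
Mean of log2(score + 1) (y axis) over the 12 fragments listed from both baits, in each HSPC library (x axis), for the Car1 bait (red circles) and the Car2 bait (blue squares). Grey lines join the baits within a library; the difference of Car1 minus Car2 is -1.60 and -1.46 in the DM libraries and between -1.10 and -0.37 in the others.

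The Car3 promoter, which contacts the same stretch, was lower in DM than in each single mutant in the fit of promoters with at least 10 pairs. It was examined after its values were known. DM minus Npm1c at Car3 was -0.99 (SE 0.16, adjusted p = 0.0282 in limma, 20 pairs), with 2.29 and 2.27 in DM libraries and 3.21 and 3.33 in Npm1c libraries. DM minus Flt3-ITD was -0.59 (SE 0.15, adjusted p = 0.0440 in limma), and the interaction was -1.01 (SE 0.23, adjusted p = 0.0205 in limma). DM minus WT at Car3 was -0.56 (SE 0.16, adjusted p = 0.0504 in limma), just outside the threshold. All of these Car3 calls were lost in the fit of promoters with at least 1 pair, where the limma adjusted p was 0.140 against Npm1c, 0.314 against Flt3-ITD and 0.0813 for the interaction. The correlation of the promoter mean over the 8 HSPC libraries was 0.755 between Car1 and Car2, 0.806 between Car1 and Car3 and 0.462 between Car2 and Car3, as a description of libraries that fall into 4 groups.

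In WT neutrophils the Car2 promoter held 21 contacts and no Car1 contact was listed. Of the 21 Car2 contacts, 17 were also in the HSPC list, 8 of them at 5 or more in both WT HSPC libraries and 9 listed through mutant HSPCs; the 4 listed in neutrophils alone all lay beyond 1 Mb. Within 1 Mb there were 14, all at higher coordinates, and none reached Car13, Car1 or E2f5. Every pair listed for neutrophils scored 5 or more in both libraries, but the filters behind the list are not given. The neutrophil scores of the missing Car1 contacts are therefore unknown.

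Several Car2 contacts outside the 10 strongest were also listed for neutrophils. Contact scores with chr3:15145579-15149266 were 7.98 and 7.37 in WT neutrophil and 7.31 and 9.11 in WT HSPC libraries, and 5.20 and 9.67 in DM, 8.35 and 5.30 in Flt3-ITD and 12.3 and 8.23 in Npm1c libraries. The pair with chr3:15161773-15164030 scored 6.74 and 6.50 in WT neutrophil and 4.74 and 2.84 in WT HSPC libraries. At chr3:15164031-15166371 the scores were 5.98 and 13.7 in WT neutrophil and 3.38 and 16.5 in WT HSPC libraries. The libraries of both cell types disagreed on the last of these, and neutrophils lay above WT HSPCs on the second.

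Toward the far end of the stretch the libraries of the 2 cell types overlapped at 2 of 3 such contacts. The link to chr3:15220308-15223438 scored 6.85 and 8.57 in WT neutrophil and 8.99 and 4.25 in WT HSPC libraries. For chr3:15224957-15226331 the scores were 5.93 and 7.44 in WT neutrophil and 7.35 and 4.34 in WT HSPC libraries. The contact with chr3:15232555-15241557 scored 6.12 and 7.58 in WT neutrophil and 9.35 and 8.35 in WT HSPC libraries, the one of these with neutrophils lower. The 4 contacts listed for neutrophils alone had scores of 5.25 to 5.34 in library 1 and 5.13 to 5.20 in library 2. Among the 7 neutrophil contacts beyond 1 Mb, 4 had a score that rounds to 5.13 in library 2.

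Between the cell types, 0 of the 17 shared Car2 contacts were called by limma over 14051 pairs, where 0.206% were called higher and 0% lower, and 3 passed unadjusted (19.9% of all did). These were -1.09 (SE 0.31, adjusted p = 0.142) at the strong fragment chr3:15192988, lower in neutrophils, and 2.21 (SE 0.36, adjusted p = 0.0889) at chr3:16081364 and 1.11 (SE 0.35, adjusted p = 0.162) at chr3:16177766, higher in neutrophils. The last 2 had scored 5 or more in both libraries of neutrophils and not of WT HSPCs, so their direction is favoured by how they were listed. Over the 8 contacts at 5 or more in both cell types the Car2 promoter stood at 3.40 and 3.20 in WT neutrophil libraries and 3.84 and 3.60 in WT HSPC libraries, a difference of -0.42 (SE 0.21, adjusted p = 0.416 in limma over 3049 promoters; 0.0656% called lower, 0.0328% higher). The libraries did not overlap, and the difference did not pass the threshold.

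Related genes give a setting for these values, from promoters with at least 1 contact. Of 16 carbonic anhydrase genes, 6 had a testable bait for DM against WT; limma called 0 (0% of promoters called in either direction), 5 of 6 differences were negative, and their median was -0.33, against 0.11 over 10041 promoters. Those of Car13 (-0.47), Car1 (-0.61) and Car3 (-0.56) were the lowest, beside Car2 (-0.09), Car7 (-0.19) and Car9 (0.16). Car13, Car1, Car3 and Car2 are neighbours that share fragments. Car2 shares 12 other ends with Car1, 21 with Car3 and 7 with Car13, while Car1 and Car13 share 2. Among 6 genes of red cell gas and bicarbonate transport, 4 had a bait with 0 called and a median of -0.40: Rhag, a subunit of the Rhesus complex, was at -0.84, the water channel gene Aqp1 at -0.52, the anion exchanger gene Slc26a6 at -0.29 and the bicarbonate cotransporter gene Slc4a7 at 0.68. The erythroid list had a median of -0.14 over 21 baits and the neutrophil list 0.17 over 13 baits, with 0 called in each, and at an unadjusted p of 0.05, 2 erythroid baits were higher and 4 lower in DM, and 2 neutrophil baits higher and 0 lower, where 12.6% of all promoters were higher and 4.63% lower. In the interaction (0.567% of 12170 promoters called higher, 1.4% lower) and the Npm1c main effect (0.403% higher, 0.353% lower) limma called 0 baits of the 4 lists. In the interaction 3 of 7 carbonic anhydrase baits were lower and 1 higher unadjusted, where 15.0% of all promoters were lower and 7.92% higher.

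Calls among these lists came with the Flt3-ITD main effect, where 5.58% of 12170 promoters were called higher and 1.34% lower by limma. Car13 fell by 0.74 (SE 0.14, adjusted p = 0.0371), as did Gata1, the erythroid master transcription factor, by 0.78 (SE 0.16, adjusted p = 0.0406) and Rhag by 0.60 (SE 0.14, adjusted p = 0.0492). Car11 (0.50), Slc4a7 (0.79), the neutrophil chemokine receptor gene Cxcr2 (0.95) and the neutrophil collagenase gene Mmp8 (0.95) rose, with adjusted p of 0.0492, 0.0297, 0.0311 and 0.0197 in limma. Car11 and Cxcr2 had 2 contacts each, and a second Mmp8 bait, at 0.61, was not called (adjusted p = 0.0535 in limma). This comparison uses all listed contacts and carries the selection of the list. Calls were thus 2 of 7 carbonic anhydrase baits, 2 of 4 transport baits, 1 of 24 erythroid baits and 2 of 17 neutrophil baits, and neither Car1 nor Car2 was among them.

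Promoters most like each gene were ranked by Pearson correlation of the promoter mean over the 8 HSPC libraries among 2833 baits with at least 10 pairs. For Car1 the named ones were Tbc1d2b (0.985), Rrm2 (0.960), a subunit gene of ribonucleotide reductase, and the bait of Chrna10 with Nup98 (0.960). For Car2 they were Crebbp (0.956), a histone acetyltransferase gene, Rad51d (0.933), a DNA repair gene, the bait of the histone genes H1f5 and H3c11 (0.932) and Fn3k (0.924). With 8 libraries in 4 groups, these values are a description alone.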

How the data were processed

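Promoter-capture Hi-C was measured in 10 mouse libraries, 8 of HSPCs and 2 of WT neutrophils. Per the labels' protocols, cells were fixed in 1% formaldehyde for 10 minutes, cut with HindIII and captured with 39684 probes for 22047 promoters; the build is mm10 per the submitters' processing notes, and the caller and its filters are not given in the sources used here. The deposited interaction score is a signal that is never negative, with 1 value per pair and library. A further deposited column gives the distance in another unit, bp. Scores were used as deposited, as log2 of the score plus 1.

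Two-sided moderated tests with an adjusted threshold of 0.05 (Benjamini-Hochberg) were run in limma 3.58.1 under R 4.3.3, with all 8 HSPC libraries in 1 fit (2 groups for neutrophils), over all 88421 pairs on autosomes and X, or over promoters with at least 10 pairs; 203 pairs elsewhere were left out. The fit was tested on simulated data. Gene names came from a RefSeq gene table without strand. Replicate numbers did not pair samples (correlations of same-numbered deviations -0.0135 to 0.0711 over 6 group pairs), and 0 libraries were identical. Members, gene lists and tests were chosen with earlier results of these data known. For each bait, all contacts are accounted for; those given in every library are the 10 strongest, called ones, those at listed genes and those shared with neutrophils. Alternatives were other pair minimums, pseudocounts, quantile normalization, a filter on low scores, pairs within 1 Mb, all listed pairs, the replicate block, each library left out, and other score thresholds.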

Additional observations from a re-analysis of the deposited data

Results flagged for a closer look

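The Car2 contact with chr3:16159845-16162896 had an interaction of Npm1c and Flt3-ITD past the threshold, at -4.91 on the log2 scale (limma, adjusted p = 0.0334), with scores of 0 and 0.439 in DM, 7.63 and 6.84 in Flt3-ITD, 2.15 and 5.16 in Npm1c, and 0 and 0 in WT libraries. It was listed through Flt3-ITD alone, the group where it is high, which favours this value, and the call was lost without any 1 library other than Npm1c library 1.

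At a further 8 contacts the libraries moved one way with a mutation on 1 background and the opposite way on the other, without overlap; these differences passed no test, and 16.0% of all 88624 pairs show such a pattern. Their interaction values were 1.13 for Car1 with chr3:15218711-15220307, and for Car2 -1.14 with chr3:15161773-15164030, 0.99 with chr3:15175725-15179152, -1.52 with chr3:15182758-15184974, -1.59 with chr3:15184975-15192987, -1.24 with chr3:15192988-15194355, 1.30 with chr3:15232555-15241557 and -1.19 with chr3:15241599-15242541.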

How the results depend on the processing

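With 2 libraries a group and no counts, the spread between libraries limits every value. All listed pairs of Car1 include 3 listed through WT alone, 2 through Npm1c alone and none through DM, which favours lower DM values. For the Car1 promoter, DM minus WT passed 0.05 with all listed pairs (-0.81), after quantile normalization (-0.80) and without either Npm1c library (range without each library -0.66 to -0.57). DM minus Npm1c at Car1 passed with all listed pairs (-0.78), quantile normalization (-0.80) and pairs within 1 Mb (-0.74), and ranged from -1.06 (passing, without Npm1c replicate 1) to -0.42 without each library. The Car1 interaction ranged from -1.07 (passing, without Npm1c replicate 1) to -0.51, the Npm1c main effect from -0.57 (passing, without Npm1c replicate 2) to -0.28, and the Flt3-ITD main effect from -0.52 (passing, without Npm1c replicate 1) to -0.24, with -0.55 (passing) after quantile normalization. Npm1c minus WT at Car1 turned to -0.031 with all listed pairs and -0.067 after quantile normalization, and ranged from -0.33 to 0.45 without each library; Flt3-ITD minus WT turned to -0.070 after quantile normalization. The Flt3-ITD main effect at Car2 turned to 0.068 with a pseudocount of 0.1 and ranged from -0.13 to 0.11 without each library. Quantile normalization moved the median over all pairs in DM minus WT to -0.01, against 0.16 on the deposited scale. The cause of these changes was not tested.

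The Car2 call at chr3:16159845 gave a count of 0 with pairs of mean score at least 3, which leave it out, in all 3 comparisons, with a pseudocount of 5 in the interaction and DM minus Flt3-ITD, and with 0.1 in the latter comparison; without each library the counts ranged from 0 to 1 in all 3 and in DM minus Npm1c, and from 0 to 2 for neutrophils. With the replicate number as a block, Car1 had 1 contact called in DM minus WT and Car2 had 0 in the interaction; the block changed no other call, and Car1 DM minus WT was -0.61 with adjusted p = 0.0855.

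At a score of 3, Car1 contacts numbered 4 in DM and 9 in each of Flt3-ITD, Npm1c and WT HSPCs. Car2 contacts then numbered 35 in DM, 40 in Flt3-ITD, 38 in Npm1c and 38 in WT. At a score of 10, Car1 had 0 in DM, Flt3-ITD, Npm1c and WT, and Car2 had 4 in DM, 8 in Flt3-ITD, 10 in Npm1c and 7 in WT. By the mean of both libraries Car1 had 0 in DM, 8 in Flt3-ITD, 8 in Npm1c and 10 in WT. Car2 by that mean had 28 in DM, 37 in Flt3-ITD, 30 in Npm1c and 39 in WT. By 1 library alone Car1 had 0 to 1 in DM, 9 in Flt3-ITD, 6 to 8 in Npm1c and 8 to 9 in WT. Car2 by 1 library had 29 to 31 in DM, 35 to 36 in Flt3-ITD, 22 to 35 in Npm1c and 35 to 36 in WT.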
